A study of Mus musculus with 28 samples.

Results

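The 98 genes described here are the mouse zinc finger genes of chromosomes 2, 4, 12 and 13. They were chosen by name and position from the RefSeq genes of the mm10 build, as symbols made of Zfp, a number and at most 1 further letter. They are 98 of 49554 genes in that table, which holds 301 other genes named in the same way on the remaining chromosomes. Chromosome 13 carries 38 of the 98, chromosome 4 carries 28, chromosome 2 carries 27 and chromosome 12 carries 5. By biotype 96 are protein coding, 1 is a pseudogene and 1 a transcribed pseudogene.

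Many genes of this kind encode proteins that join a KRAB domain to an array of C2H2 zinc fingers, each array reading its own DNA sequence. The KRAB domain recruits TRIM28, and TRIM28 brings SETDB1, the methyltransferase that places 3 methyl groups on lysine 9 of histone H3 (H3K9me3). H3K9me3 is best known from heterochromatin and from silenced retroelements, and it also lies over the zinc finger genes themselves, mostly over their 3′ exons, which encode the repeated fingers. Acetylation of the same lysine (H3K9Ac) marks active promoters. Zinc finger genes of the mouse sit in large, young clusters of near-copies, and those of chromosomes 2, 4 and 13 are among the largest. Others among the 98, such as Zfp410 or Zfp292, are old single genes that have no KRAB domain.

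Chromatin immunoprecipitation with sequencing was carried out on MNase-digested chromatin of cultured mouse tumour cells. The groups were MC38 cells (colon adenocarcinoma) transduced with pCRISPR-v2-puro carrying a Setdb1 guide (MC38 KO), MC38 cells that received the empty vector (MC38 control), B16OVA melanoma cells with the Setdb1 guide (B16 KO) and B16OVA cells with the empty vector (B16 control). All 4 groups passed through puromycin selection, and B16OVA is the B16 line made to express ovalbumin. Each group had 3 libraries for H3K9me3 and 3 for H3K9Ac, 24 libraries in all. The labels say neither whether a KO line is 1 clone or a pool nor whether replicates came from separate cultures, so the spread between replicates may be technical.

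The files list islands, stretches of enriched reads, with the read count of each. A level is the number of island reads over the gene and 2 kb on each side, in RPM (a reads-per-million scale over all tested genes, after TMM scaling). A level of 0 means that no island was called there, which is not the same as no reads. The regions of 68 members overlap that of another RefSeq gene and those of 14 overlap another member's, so reads over near-copies are uncertain where the aligner had to choose between them.

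Chosen by a distance under 1 Mb between neighbours and at least 3 members, a rule set after values had been seen, 60 members fell into 6 clusters and 38 stood alone. The largest held 24 members at chr13:66670274-67827000 and is known for the Rsl genes, repressors of sex-biased liver genes. The next held 16 members at chr4:145510759-147849126, some of which are known to repress endogenous retroviruses. Smaller clusters held 10 members at chr2:174598682-178078425, 4 members at chr2:150114407-150485063, 3 members at chr2:164891882-165388315 and 3 members at chr13:62129857-62579321.

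Promoter windows are shown for the 3 members whose H3K9me3 was called different between the control lines (Zfp456, Zfp972 and Zfp334) and for Zfp65, the member with the lowest p for H3K9me3 in B16 KO cells, which was picked after its values were seen. They run from 250 bases before to 50 bases after the RefSeq start (assembly GRCm38.p6), all on the minus strand, 5′ to 3′, with CG dinucleotides in capitals, since CG-rich promoters are the ones most often acetylated. Zfp456 lies at chr13:67375714-67376013 and holds 9 CG, Zfp65 at chr13:67729124-67729423 holds 8, Zfp334 at chr2:165388210-165388509 holds 16 and Zfp972 at chr2:177925601-177925900 holds 4.
Zfp456: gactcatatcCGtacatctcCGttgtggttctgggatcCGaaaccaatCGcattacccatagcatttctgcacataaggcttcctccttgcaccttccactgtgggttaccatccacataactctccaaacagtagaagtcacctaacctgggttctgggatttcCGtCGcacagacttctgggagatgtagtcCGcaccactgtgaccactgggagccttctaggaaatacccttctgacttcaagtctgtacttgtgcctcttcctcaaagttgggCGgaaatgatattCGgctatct
Zfp972: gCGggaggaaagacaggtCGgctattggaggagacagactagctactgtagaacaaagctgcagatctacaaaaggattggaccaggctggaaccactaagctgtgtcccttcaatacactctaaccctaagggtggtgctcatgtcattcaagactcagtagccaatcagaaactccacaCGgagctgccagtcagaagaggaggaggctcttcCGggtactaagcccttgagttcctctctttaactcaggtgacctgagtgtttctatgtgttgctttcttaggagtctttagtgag
Zfp334: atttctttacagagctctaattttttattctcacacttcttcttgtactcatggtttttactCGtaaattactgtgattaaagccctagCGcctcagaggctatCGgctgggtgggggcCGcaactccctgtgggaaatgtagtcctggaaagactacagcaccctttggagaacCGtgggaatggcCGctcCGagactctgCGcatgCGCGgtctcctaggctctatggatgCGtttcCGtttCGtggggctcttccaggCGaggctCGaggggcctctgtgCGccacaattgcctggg
Zfp65: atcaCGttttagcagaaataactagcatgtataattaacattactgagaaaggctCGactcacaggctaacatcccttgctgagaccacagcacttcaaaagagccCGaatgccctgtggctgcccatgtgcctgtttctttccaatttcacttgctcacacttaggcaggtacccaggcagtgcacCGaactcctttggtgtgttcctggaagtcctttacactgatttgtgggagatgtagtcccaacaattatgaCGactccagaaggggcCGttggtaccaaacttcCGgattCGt

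The median CG count was 9 over the 81 members with a window in the RefSeq promoter table and 7 over all 32851 windows. It was 19.5 among the members outside clusters, 8 in the 24-member cluster of chromosome 13 and 4.5 in the chromosome 4 cluster. The motif CCAAT, searched on both strands, was present in 55.6% of the members' windows and 37.4% of all windows. The motif GGGCGG, also on both strands, was present in 35.8% of the members' windows and 35.7% of all. For a member with several starts, only the window of the start with H3K9Ac islands in the most libraries was used. Most such members lay outside clusters. All windows were taken without that choice. The members' CG counts and motif shares are thus set beside an unlike set, and whether the members differ in them was not tested. Of the windows shown, Zfp456 held both motifs, Zfp972 and Zfp65 held CCAAT, and Zfp334 held neither.

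Total island reads ran between 15200766 and 45419584 per H3K9me3 library and between 28453371 and 78087809 per H3K9Ac library. The H3K9me3 islands covered 563, 442 and 215 Mb of the genome in the MC38 KO libraries, against 345, 344 and 452 Mb in MC38 control, and 431, 367 and 406 Mb in B16 KO, against 325, 326 and 285 Mb in B16 control. MC38 KO replicate 3 of H3K9me3 stood apart from its group, and the H3K9me3 counts and members it bears on are given with and without it. It was judged apart by its island coverage and also by the direction of most zinc finger genes. Counts without it are therefore not independent of that choice. The cells' labels were set against markers: 3 of 7 melanocyte genes had H3K9Ac islands in all 3 MC38 KO libraries, 4 in MC38 control and 7 in each B16 group, and Tyr, Tyrp1 and Dct had none in any MC38 library. Of 7 gut epithelial genes, 6 had islands in MC38 KO, 7 in MC38 control and 5 in each B16 group. Of 5 leukocyte genes the counts were 4 in MC38 KO, 3 in MC38 control and 2 in each B16 group, and of 5 fibroblast genes 3 in each MC38 group and 4 in each B16 group. H3K9Ac over Setdb1 was 111 ± 5.24 RPM in MC38 KO, against 96.2 ± 7.73 RPM in MC38 control, and 78.8 ± 8.98 RPM in B16 KO, against 76.6 ± 5.06 RPM in B16 control (SD, n = 3 each). A guide that breaks the coding sequence need not alter acetylation, so this does not check the knockout.

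Both marks were found together over many of these genes. An island of each mark was present in all 3 libraries for 30 members in MC38 KO and 38 in MC38 control, and for 35 members in B16 KO and 42 in B16 control. With H3K9me3 required only in MC38 KO replicates 1 and 2, the MC38 KO count was 31. H3K9me3 alone marked 10 members in MC38 KO and 14 in MC38 control, and 12 members in B16 KO and 15 in B16 control. H3K9Ac alone marked 27 members in MC38 KO and 25 in MC38 control, and 27 members in B16 KO and 19 in B16 control. Without replicate 3 of H3K9me3, the MC38 KO counts were 13 for H3K9me3 alone and 30 for H3K9Ac alone. For H3K9me3, 72 members passed the filter of a mean of 10 island reads, 7 more had an island in some library and 19 had none. For H3K9Ac, 82 passed, 3 more had an island in some library and 13 had none. Zfp968, Zfp965, Zfp966, Zfp967 and Zfp973, all of the 10-member chromosome 2 cluster, had no island of either mark in any of the 24 libraries. The promoter windows of Zfp966 and Zfp967 were identical throughout and those of Zfp968 and Zfp973 99.7% identical; reads that match several copies equally may be lost in alignment, and their part in these zeros was not tested.

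The densest H3K9me3 lay in the chromosome 4 cluster. Per kb of region, Zfp992 averaged 14.3 RPM over the 12 libraries, Zfp981 13.7, Zfp982 13 and Zfp985 11.9, against a median of 1.16 over the members. Zfp992 carried 16.6 RPM per kb in MC38 KO, against 17.7 in MC38 control, and 11.1 in B16 KO, against 11.8 in B16 control. Islands covered 97.8% of its region in B16 KO and 97.3% in B16 control. For H3K9Ac, the 4 highest per kb were Zfp839, Zfp512b, Zfp346 (which binds double-stranded RNA) and Zfp408, at 2.80, 2.64, 2.48 and 2.26 RPM per kb, against a member median of 0.495.

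In B16 cells, H3K9me3 was lower over a large share of the members after Setdb1 targeting, but edgeR called no single member. Of the 72 tested, edgeR's quasi-likelihood test with Benjamini-Hochberg adjustment over all 25677 tested genes called 0 at an adjusted p under 0.05, where it called 0.312% of all genes. Before adjustment, 9 lower members and 1 higher one had a p under 0.05, where 4.1% and 3.63% of all genes did. DESeq2 called 6 (8.28% of all genes), of which Zfp971, Zfp184, Zfp169, Zfp748 and Zfp65 were lower and Zfp352 higher. For Zfp352, a gene known from early mouse embryos, that call rests on B16 KO replicate 1, with 29.8 RPM where the other 5 B16 libraries had no island.

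All 3 B16 KO libraries lay below all 3 B16 control libraries for 28 of the 72 members (38.9%), where 9.44% of all tested genes did so, and all 3 lay above for 0 members, against 5.89% of all genes. Adding the members under the filter made this 29 lower, with Zfp362, and 1 higher, Zfp970. Of the zinc finger genes on other chromosomes, 78 of 176 were lower (44.3%) and 0 higher. Of the 50 members with islands in all 6 B16 libraries, 44 had a mean below control, with a median log2 ratio of -0.45; over all 7962 such genes, 3916 had one, with a median of 0.01. The islands of the B16 KO libraries covered more of the genome than those of the controls, as given above, and the part of this in the result was not tested.

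The lower members were unevenly spread. They made up 13 of 24 in the large chromosome 13 cluster, 3 of 3 in the smaller one, 3 of 4 in the 4-member chromosome 2 cluster, 1 of 16 in the chromosome 4 cluster, 1 of 4 and 1 of 2 tested members of the other chromosome 2 clusters and 6 of 19 outside clusters. The median fitted log2 change was -1.02 in the large chromosome 13 cluster and -0.11 in the chromosome 4 cluster, against 0 over all genes. Without the flanks or with whole islands in place of apportioned reads the 28 became 22 and 21. Shares of all genes are not given for these settings, so these counts show only how the setting moves the number.

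**Figure D1:**
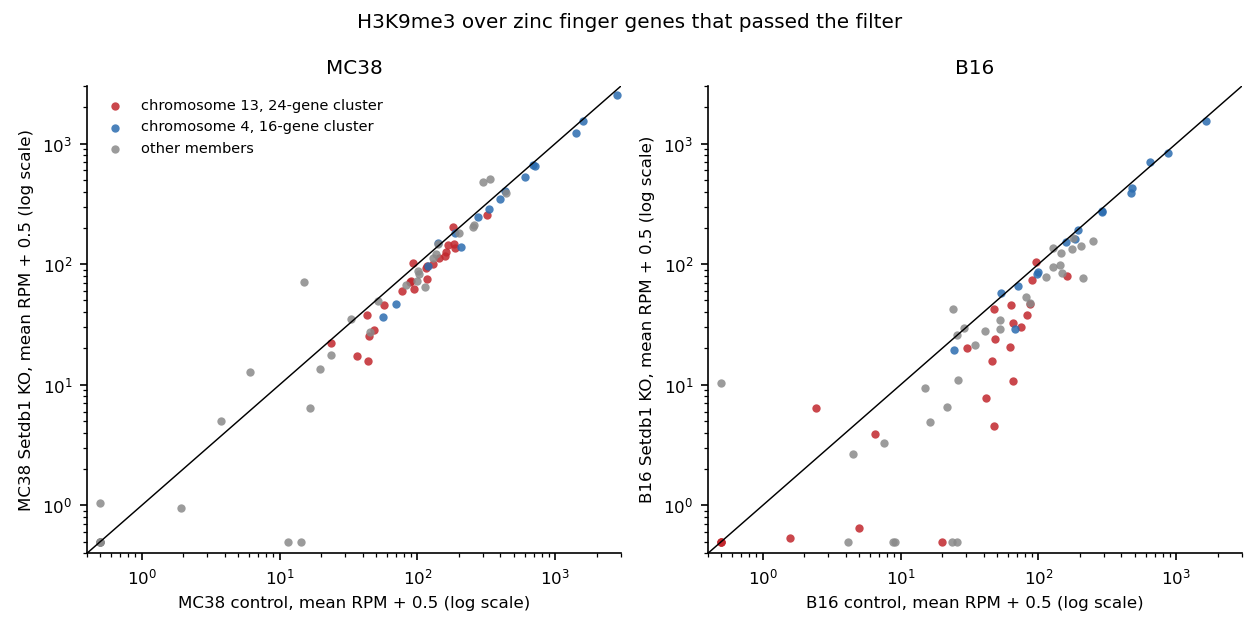
H3K9me3 over the tested members, KO mean (y axis) against control mean (x axis) as RPM + 0.5 on log axes, with MC38 on the left and B16 on the right, each point 1 gene and the diagonal marking equal levels. In B16 most red points (the 24-member chromosome 13 cluster) lie under the diagonal and the blue ones (chromosome 4 cluster) on or near it; genes with no island sit at 0.5.

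Among the members whose groups did not overlap, the largest difference of means was at Zfp934 of the smaller chromosome 13 cluster (chr13:62516795-62579321). It had 81.0, 85.6 and 63.8 RPM in B16 KO, against 235.8, 174.5 and 223.7 RPM in B16 control. The gap between the groups was wider than the range within either. Its mean was 76.8 ± 11.5 RPM in B16 KO and 211 ± 32.5 RPM in B16 control (SD, n = 3 each), a log2 change of -1.46 ± 0.37 (SE) with an edgeR adjusted p of 0.32. With limma on log2(RPM + 0.5) it was -1.45 with an adjusted p of 0.072, the lowest of its alternatives, which ran up to 0.682.

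Zfp65, in the large chromosome 13 cluster (chr13:67705306-67729178), had 13.4, 13.4 and 3.99 RPM in B16 KO, against 81.4, 49.9 and 64.3 RPM in B16 control. The KO mean of 10.3 ± 5.44 RPM was 6.35-fold below the control mean of 65.2 ± 15.8 RPM (SD, n = 3 each), and the log2 change was -2.67 ± 0.62 (SE, edgeR adjusted p of 0.31). Its H3K9Ac was 29.2, 22.3 and 19.9 RPM in B16 KO, against 27.8, 26.5 and 19.4 RPM in B16 control, with the groups overlapping.

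Zfp458, a candidate gene for the Rsl trait, had 74.0, 74.2 and 91.8 RPM of H3K9me3 in B16 KO, against 198, 142 and 144 RPM in B16 control (log2 change -1.01 ± 0.43, edgeR adjusted p 0.62). Zfp442 of the 4-member chromosome 2 cluster had 168, 132 and 161 RPM in B16 KO, against 304, 195 and 242 RPM in B16 control (-0.68 ± 0.38, adjusted p 0.63). Zfp369 had 100, 52.4 and 100 RPM in B16 KO, against 193, 110 and 140 RPM in B16 control (-0.81 ± 0.48, adjusted p 0.65). The groups did not overlap at any of these genes, and the gap was narrowest at Zfp369, between 100 and 110 RPM. Zfp808 had 154, 113 and 157 RPM in B16 KO, against 266, 180 and 162 RPM in B16 control (-0.52 ± 0.38, adjusted p 0.81), so its highest KO and lowest control libraries stood side by side.

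Several members were at or near 0 in B16 KO. Zfp971 and Zfp184 had no island in B16 KO, against 19.7, 33.2 and 23.1 RPM for Zfp971 and 27.7, 21.3 and 20.8 RPM for Zfp184 in B16 control. Zfp738 of the large chromosome 13 cluster had 0, 0 and 12.2 RPM in B16 KO, against 39.2, 36.6 and 64.6 RPM in B16 control, and edgeR called it without B16 KO replicate 3 (adjusted p 0.018). Zfp748 had no island in B16 KO, against 31.6, 26.9 and 0 RPM in B16 control, and edgeR called it without B16 control replicate 3 (adjusted p 0.0148). Both calls left out the library nearest the other group, so they rest on that choice. With all libraries edgeR called neither gene. Zfp708, which in the mouse binds and represses a retroelement, had 31.3, 13.6 and 25.4 RPM in B16 KO, against 66.5, 42.4 and 34.5 RPM in B16 control. Zfp410, an activator of the chromatin remodeller gene Chd4, had no H3K9me3 island in any library, and Zfp69, a gene tied to diabetes in mice, had at most 4.37 RPM in any.

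Reads over the whole cluster intervals, genes and spacers together, were also compared per library. The 24-member chromosome 13 interval held 1512 ± 106 RPM in B16 KO and 2283 ± 557 RPM in B16 control (SD, n = 3 each), a ratio of 0.66, and its 3 KO libraries (1634.5, 1440.4 and 1462.1 RPM) lay below the controls (2913.2, 2080.4 and 1856.2 RPM). Islands covered 22% of it in B16 KO and 29.9% in B16 control. The chromosome 4 interval held 7821 ± 1515 RPM in B16 KO and 8121 ± 2212 RPM in B16 control, a ratio of 0.96, with 35.9% covered in B16 KO and 34.3% in B16 control. Within each library, which no scaling between libraries can alter, reads over the chromosome 13 interval came to 17.1%, 20.4% and 21.4% of those over the chromosome 4 interval in B16 KO, against 27.3%, 30.0% and 27.5% in B16 control. This ratio was chosen after the data were seen. The smaller chromosome 13 interval held 907.1 ± 173.7 RPM in B16 KO and 1377 ± 506 RPM in B16 control, and the 4-member chromosome 2 interval 1569 ± 92.4 RPM in B16 KO and 2048 ± 255 RPM in B16 control (SD, n = 3 each).

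**Figure D2:**
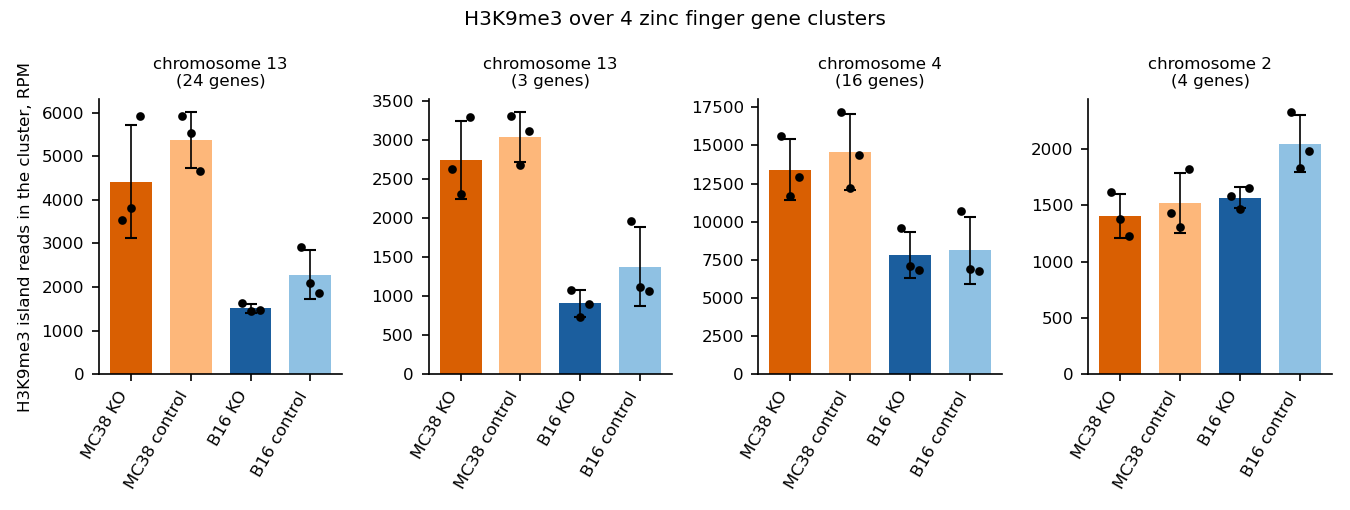
H3K9me3 over 4 whole cluster intervals in RPM, by group, bars giving the mean of 3 libraries, whiskers the SD and points the libraries. The chromosome 13 interval averaged 1512 RPM in B16 KO and 2283 RPM in B16 control, while the chromosome 4 interval averaged 7821 and 8121 RPM in the same groups.

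In MC38 cells few members had KO and control libraries that stood apart when all 3 of each group were used. EdgeR called 0 of 72, where it called 0.136% of all genes. An unadjusted p under 0.05 was reached by 2 lower members and 1 higher, against 4.16% and 2.7% of all genes, and DESeq2 called Zfp184 and Zfp189 lower, where it called 4.17% of all genes lower. Both had no island in MC38 KO, against 14.3, 18.8 and 0 RPM for Zfp184 and 0, 22.2 and 19.3 RPM for Zfp189 in MC38 control. All KO libraries lay below all controls for 2 members, against 1.73% of all genes, and above for 0, against 0.596%. The 2 were Zfp808, with 216, 200 and 211 RPM in MC38 KO, against 251, 230 and 289 RPM in MC38 control, and Zfp457, also an Rsl candidate, with 81.7, 85.1 and 56.1 RPM in MC38 KO, against 147, 101 and 103 RPM in MC38 control. Their log2 changes were -0.30 ± 0.38 and -0.65 ± 0.48 (SE), each with an edgeR adjusted p of 1. DESeq2 size factors left 0 of these 2 members.

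Without MC38 KO replicate 3, both remaining KO libraries lay below all 3 controls for 26 of 72 members (36.1%), against 5.08% of all genes, and above for 0, against 4.59%. They included 17 of 24 members in the large chromosome 13 cluster, 3 of 3 in the smaller one and 1 of 16 in the chromosome 4 cluster. Of the 26, 21 were also among the 28 of B16, while with all libraries 2 members were lower in both lines. The share of all genes lower in both lines is not given, so this overlap does not measure agreement between the lines. Zfp934, for example, had 325, 333 and 511 RPM in MC38 KO, against 418, 435 and 475 RPM in MC38 control, and Zfp65 had 83.6, 92.0 and 175 RPM in MC38 KO, against 161, 173 and 141 RPM in MC38 control. At each of these genes replicates 1 and 2 were under every control and replicate 3 over every control. Replicate 3 was set apart partly by the direction of such genes, so the counts without it do not test that direction. EdgeR without that library called 1 member, Zfp277 (adjusted p 0.028), which had 0, 0 and 17.8 RPM in MC38 KO, against 19.8, 16.5 and 12.4 RPM in MC38 control. Replicate 3 was the KO library that lay within the control range there. Leaving out MC38 KO replicate 1 in its place gave 11 members lower (4.74% of all genes) and KO replicate 2 gave 2 (3.84%). Leaving out control replicate 1 gave 5 (4.57%), control replicate 2 gave 4 (4.03%) and control replicate 3 gave 7 (4.67%).

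Over the intervals the MC38 groups overlapped. The large chromosome 13 interval held 3532.9, 3803.3 and 5916.8 RPM in MC38 KO, against 5921.0, 5525.6 and 4666.8 RPM in MC38 control, and the ratio of the means was 0.82. The chromosome 4 interval held 13404 ± 1996 RPM in MC38 KO and 14588 ± 2493 RPM in MC38 control, and the smaller chromosome 13 interval 2742 ± 500 RPM in MC38 KO and 3038 ± 322 RPM in MC38 control (SD, n = 3 each). Islands covered 46.4% of the large chromosome 13 interval in MC38 KO and 55.3% in MC38 control. As a percent of the chromosome 4 reads in the same library, the chromosome 13 reads came to 22.7%, 32.6% and 45.7% in MC38 KO, against 34.4%, 45.2% and 32.5% in MC38 control, which overlapped.

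The difference between the lines in the KO effect, MC38 minus B16, was tested in the same edgeR fit and called for 0 of 72 members, where it was called for 0.397% of all genes. Before adjustment, 5 higher and 2 lower members had a p under 0.05, against 3.94% and 5.44% of all genes, and DESeq2 called 4 (11.2% of all genes), with Zfp748 and Zfp971 higher and Zfp352 and Zfp189 lower. For Zfp65 the difference was 2.23 ± 0.84 and for Zfp934 1.28 ± 0.51 on the log2 scale (SE), both with an edgeR adjusted p of 0.53. Without MC38 KO replicate 3 they were 1.82 ± 0.80 for Zfp65 and 1.03 ± 0.47 for Zfp934, both with an adjusted p of 0.60. A difference between the lines in the members' H3K9me3 change was therefore not shown.

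Along the genes of the large chromosome 13 cluster, H3K9me3 was densest toward the 3′ end and H3K9Ac sat at the start. Over the 21 members of the large chromosome 13 cluster with a known strand, cut into 3 nearly equal parts, H3K9me3 in B16 KO was 0.45 RPM per kb in the 5′ part, 0.74 ± 0.10 in the middle and 1.70 ± 0.37 in the 3′ part, against 0.67, 2.01 ± 0.51 and 3.02 ± 0.52 in B16 control (SD, n = 3 each). The middle and the 3′ part were lower in B16 KO by more than those SDs. In MC38 KO the values were 2.42, 4.27 ± 1.48 and 5.23 ± 1.48 RPM per kb, against 2.77, 5.34 ± 0.39 and 6.50 ± 0.48 in MC38 control. The MC38 KO spread covered the control means. Without replicate 3 the MC38 KO means were 1.76, 3.43 and 4.40 RPM per kb, and both remaining libraries were below those control means in each part. H3K9Ac in the 5′ part was 1.27 ± 0.28 RPM per kb in MC38 KO and 1.16 ± 0.04 in MC38 control, and 1.06 ± 0.03 in B16 KO and 1.12 ± 0.18 in B16 control, differences within the spread. Over the 12 chromosome 4 members with a known strand, mean H3K9me3 was present in all 3 parts. The parts carried 6.56 to 8.82 RPM per kb in MC38 KO, against 7.54 to 9.89 in MC38 control. In B16 KO they carried 3.54 to 5.08, against 3.82 to 5.82 in B16 control. Without replicate 3 the MC38 KO range was 6.72 to 9.02. Single genes of this cluster differed. Zfp981, Zfp988, Zfp982 and Zfp985 had an island at the start and at the 3′ end in all 12 libraries, and Zfp600 at neither in any.

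**Figure D3:**
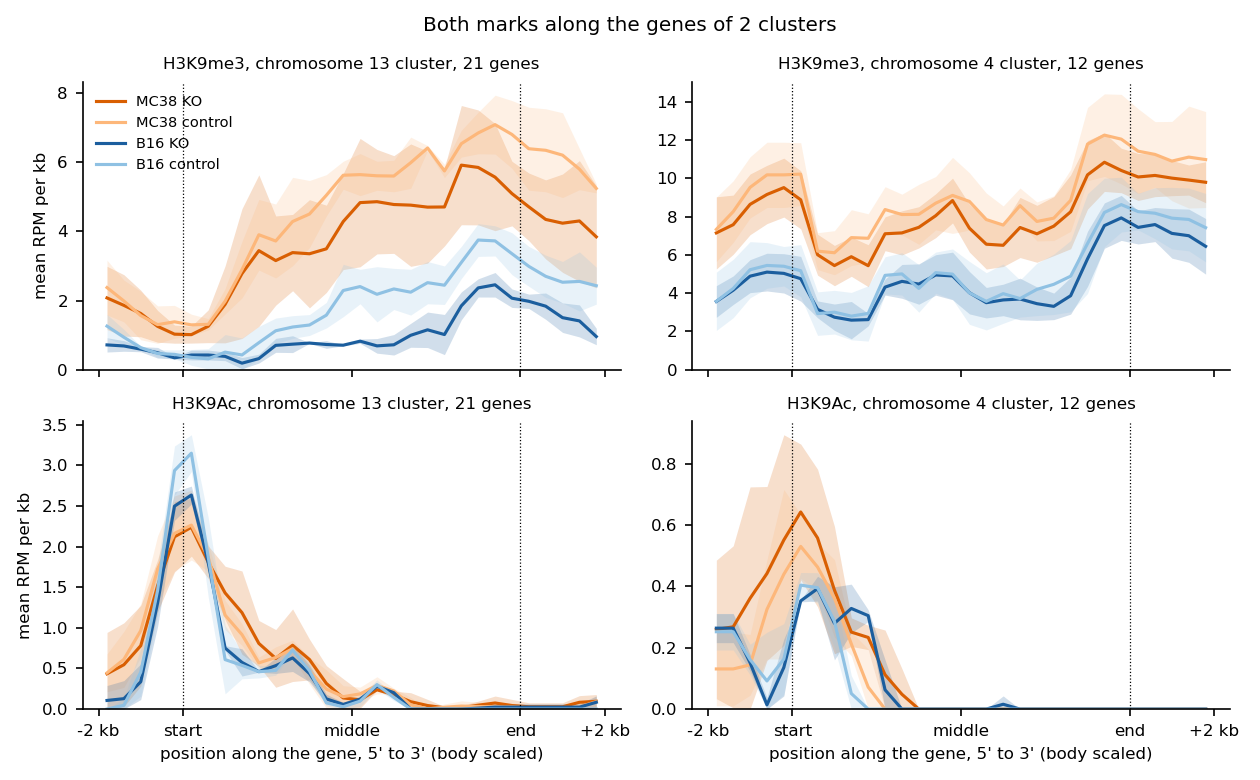
Mean H3K9me3 and H3K9Ac (RPM per kb) along the members of the large chromosome 13 cluster (21 genes) and the chromosome 4 cluster (12 genes), from 2 kb before the start to 2 kb after the end with gene bodies scaled to 1 length; lines are means of 3 libraries and bands the SD. H3K9me3 climbs toward the 3′ end in all groups of the chromosome 13 cluster, and the B16 KO line runs below the B16 control line there.

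Where a member had several RefSeq starts, the one with an H3K9Ac island in the most libraries was used. All counts at the start given here therefore favour H3K9Ac for such members. An H3K9Ac island lay over the start site in all 12 libraries for 51 of the 81 members with a known start and in none for 19. The clusters differed in this: 18 of 21 members of the large chromosome 13 cluster had it in all 12, but 2 of 12 in the chromosome 4 cluster and 1 of 9 in the 10-member chromosome 2 cluster. An H3K9me3 island lay over the 3′ end in all 3 libraries for 21 members in MC38 KO and 28 in MC38 control, and for 19 in B16 KO and 29 in B16 control. At the start the corresponding counts were 8 in MC38 KO and 7 in MC38 control, and 6 in B16 KO and 5 in B16 control. Members with H3K9Ac at the start and H3K9me3 at the 3′ end numbered 11 in MC38 KO and 17 in MC38 control, and 9 in B16 KO and 18 in B16 control. With replicates 1 and 2 of H3K9me3 alone, the MC38 KO counts were 24 at the 3′ end, 9 at the start and 14 with both. In single libraries the 3′-end island was present at 31, 31 and 28 members in MC38 KO, against 34, 34 and 33 in MC38 control.

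For H3K9Ac, few members had KO and control libraries that stood apart. In B16, edgeR called 0 of 82 members, where it called 0.0839% of all 33363 tested genes. Before adjustment, 1 higher member had a p under 0.05, against 2.51% of all genes higher, and DESeq2 called 0, against 3.07%. KO libraries lay above all controls for 4 members, against 4.73% of all genes, and below for 2, against 3.35%. Those higher were Zfp292, Zfp933, Zfp991 and Zfp937, and those lower Zfp970 and Zfp512b. Zfp991 of the chromosome 4 cluster had 9.34, 9.03 and 7.19 RPM in B16 KO, against 3.91, 4.10 and 3.12 RPM in B16 control. Zfp512b had 36.4, 35.2 and 33.9 RPM in B16 KO, against 41.5, 37.8 and 40.3 RPM in B16 control, but its log2 change turned to 0.19 with whole islands and to 0.18 with 2 kb on each side of the 5′ end. Of the 28 members lower in B16 H3K9me3, Zfp933 was thus the one among those higher in H3K9Ac. Its H3K9Ac change was not called by edgeR and turned negative with 2 kb on each side of the 5′ end.

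Zfp292 (chr4:34803110-34882983), a large single zinc finger gene, had 55.4, 77.3 and 52.2 RPM of H3K9Ac in B16 KO, against 34.6, 52.0 and 36.5 RPM in B16 control. Its KO libraries were all above the controls, though the lowest KO and the highest control nearly met, and replicate 2 was the highest in both groups. The log2 change was 0.59 ± 0.25 (SE) with an edgeR adjusted p of 1. Within each line equal replicate numbers varied together for H3K9Ac. With the number as a block over both lines, the same change had an SE of 0.06 and an edgeR adjusted p of 0.038. Over its alternatives the adjusted p ran from 0.038 to 1. In MC38 it had 47.4, 73.1 and 44.5 RPM in KO, against 52.2, 75.5 and 54.6 RPM in control, and the blocked difference of effects, MC38 minus B16, was -0.75 ± 0.09 (edgeR adjusted p 0.039). The B16 change was -0.0 with the weakest islands removed. H3K9me3 over Zfp292 was 9.07, 16.9 and 0 RPM in B16 control and 0 in the other groups.

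In MC38, edgeR called 0 of 82 members for H3K9Ac, where it called 0.126% of all genes. Before adjustment, 1 higher and 2 lower members had a p under 0.05, against 1.81% and 1.31% of all genes, and DESeq2 called Zfp456 lower, where it called 1.12% of all genes lower. Zfp456 had no island in MC38 KO and overlapping, low values in MC38 control, given below, so that call rests mainly on 1 control library. KO libraries lay above all controls for Zfp341 alone, against 1.92% of all genes, and below for Zfp931 alone, against 1.87%. Zfp341 had 74.4, 72.6 and 70.04 RPM in MC38 KO, against 62.4, 56.1 and 66.2 RPM in MC38 control (log2 change 0.23 ± 0.09, edgeR adjusted p 1). Without MC38 KO replicate 3, 18 members were above, against 7.69% of all genes, and 2 below, against 7.81%. Those above included 10 of the 23 tested members of the large chromosome 13 cluster. Without B16 control replicate 3, 14 members were below in B16, against 10.0% of all genes. These 18 and 14 were the highest counts when each library was left out in turn. The ranges were 1 to 18 above in MC38 and 2 to 14 below in B16. Both omissions were chosen after the data were seen. The difference of KO effects, MC38 minus B16, was called for 0 members without the block, against 0.174% of all genes. Before adjustment, 1 lower member had a p under 0.05, against 2.02% of all genes, and DESeq2 called Zfp456 lower, where it called 1.98% of all genes lower. This call of Zfp456 has the same limit as its call in MC38.

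**Figure D4:**
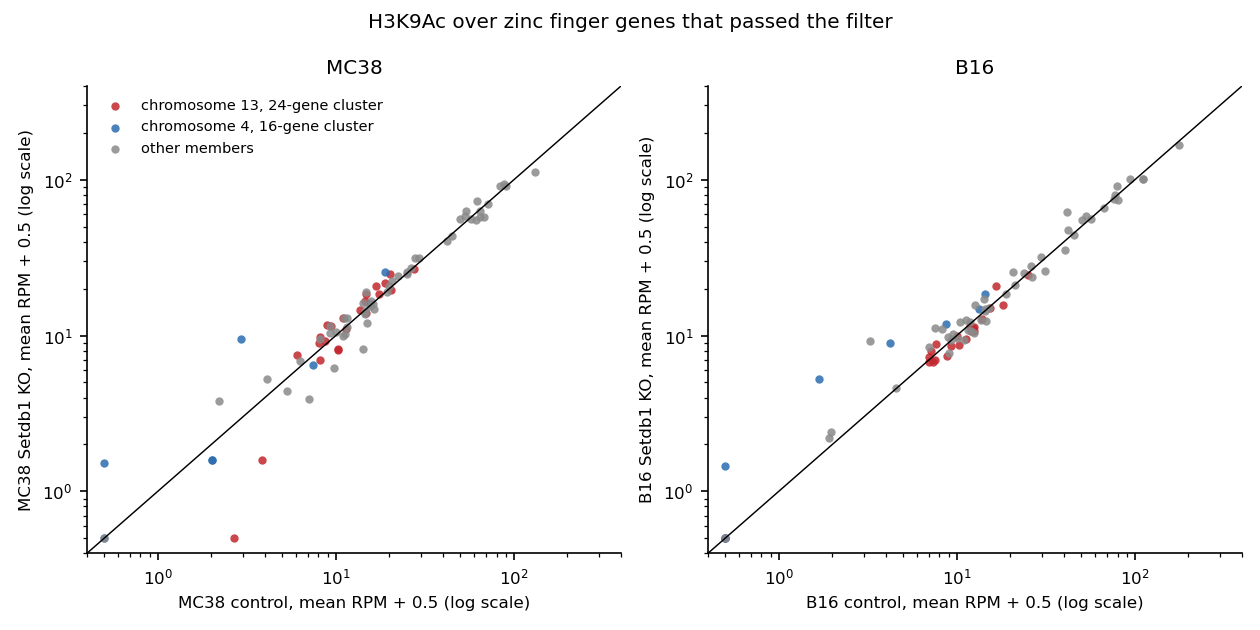
H3K9Ac over the tested members, KO mean (y axis) against control mean (x axis), as RPM + 0.5 on log axes, with MC38 on the left and B16 on the right, each point 1 gene and the diagonal marking equal levels. Most members lie along the diagonal in both lines, and the genes that lie off it by most are at levels under 10 RPM.

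The control lines were compared in the same edgeR fits. For H3K9me3, MC38 control was called higher than B16 control at 1 member and lower at 2 of 72, where 7.13% of all genes were called. Before adjustment, 15 higher and 4 lower members had a p under 0.05, against 10.4% and 14.4% of all genes. DESeq2 called 8, against 27.4% of all genes. All MC38 control libraries lay above all B16 control libraries for 40 members (55.6%), against 13.6% of all genes, and below for 10 (13.9%), against 20.7%. The median log2 difference was 0.86 over the members and -0.20 over all genes, while the other zinc finger genes had 26 of 176 higher, 49 lower and a median of -0.61. With total island reads as the scaling the medians were 0.38 over the members and -0.65 over all genes, and 4 higher members had a p under 0.05 before adjustment. The share of all genes with such a p under that scaling is not given. Higher members made up 21 of 24 in the large chromosome 13 cluster, 12 of 16 in the chromosome 4 cluster and 2 of 3 in the smaller chromosome 13 cluster. Lower ones made up all 4 tested members of the 10-member chromosome 2 cluster and both tested members of the 3-member one on that chromosome. The filter took the mean of all libraries of the mark, so a member could pass through 1 line alone. Zfp972, Zfp931 and Zfp334 of these clusters had islands in all B16 control and no MC38 control library. Their direction was thus tied to the filter, and the share of tested members lower there is no test.

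Zfp456 of the large chromosome 13 cluster had H3K9me3 of 51.3, 110 and 108 RPM in MC38 control and no island in B16 control (edgeR adjusted p 0.0041). It had 51.6, 104 and 59.0 RPM in MC38 KO and again none in B16 KO, so the line difference stood in both genotypes. Its H3K9Ac was low or missing in MC38, at 0, 0 and 0 RPM in MC38 KO and 0, 6.02 and 0.572 RPM in MC38 control, against 5.87, 4.48 and 8.49 RPM in B16 KO and 6.94, 5.30 and 8.22 RPM in B16 control. The H3K9me3 call was lost with the weakest islands removed, and adjusted p ran from 9.5e-11 to 0.0767 over the alternatives. Its promoter window, shown above, was 87.3% identical to that of Zfp429, whose start carried H3K9Ac in all 12 libraries.

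Zfp972 of the 10-member chromosome 2 cluster (chr2:177903064-177925650) showed the marks the other way round. It had no H3K9me3 island in MC38 control, against 31.7, 34.6 and 18.2 RPM in B16 control (edgeR adjusted p 0.010), and none in MC38 KO, against 30.0, 27.95 and 30.1 RPM in B16 KO. Its H3K9Ac was 5.95, 6.40 and 5.14 RPM in MC38 control, with no island in either B16 group (adjusted p 0.0014 between controls), and 7.70, 6.01 and 5.31 RPM in MC38 KO. The H3K9me3 call was lost with whole islands and with the replicate block, with adjusted p up to 0.0996.

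Zfp334 (chr2:165374264-165388315) had no H3K9me3 island in MC38 control, against 72.6, 29.4 and 0.864 RPM in B16 control (edgeR adjusted p 0.043), and none in MC38 KO, against 18.6, 11.9 and 32.2 RPM in B16 KO. The B16 control libraries spread widely, and the call was lost under 13 of the alternatives, among them leaving out any of B16 control replicates 1 and 2, the MC38 control libraries or the B16 KO libraries, with adjusted p up to 0.196. Its H3K9Ac was 24.6, 18.8 and 12.1 RPM in MC38 KO, 13.2, 13.1 and 16.4 RPM in MC38 control, 8.91, 0 and 17.3 RPM in B16 KO and 0, 0 and 8.31 RPM in B16 control. Against groups with no island, fitted folds have no fixed size and are not given.

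**Figure D5:**
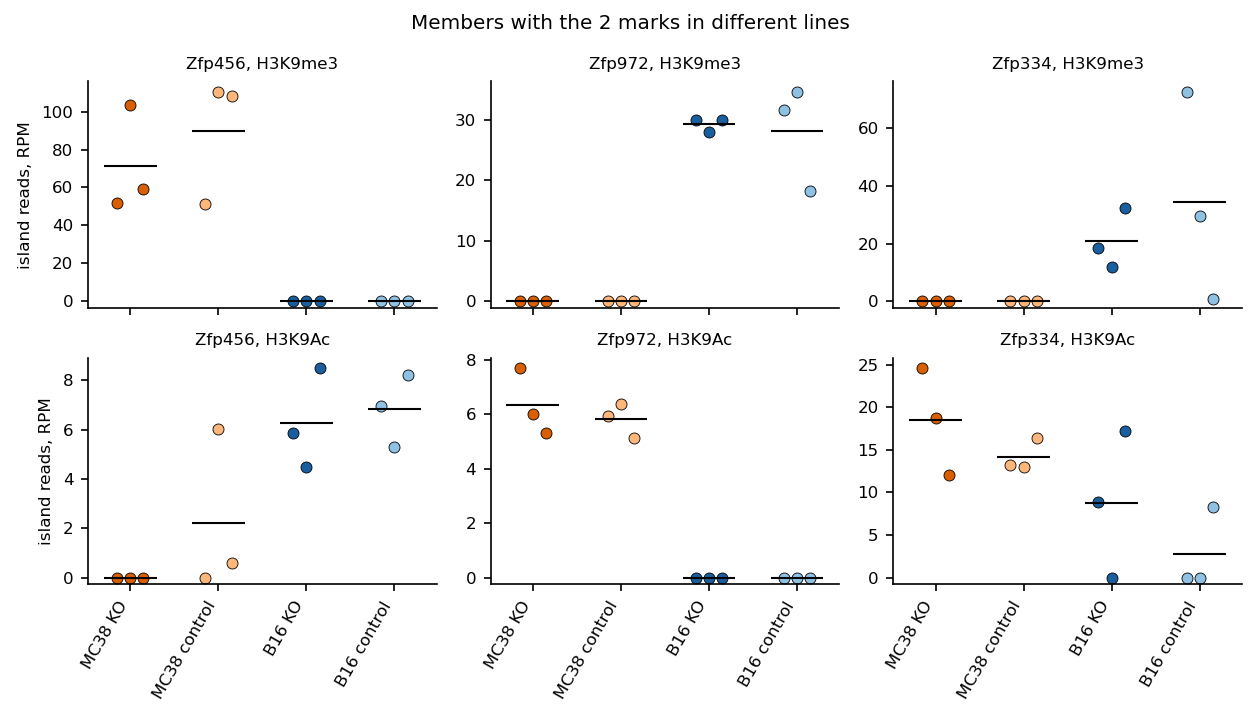
H3K9me3 (top) and H3K9Ac (bottom) of the 3 members called between the lines for H3K9me3, in RPM, by group, with a point per library and a line at the mean of 3. Zfp456 carries H3K9me3 in MC38 groups alone and Zfp972 in B16 groups alone, and Zfp972 carries H3K9Ac in the MC38 groups.

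For H3K9Ac, 9 of 82 members were called between the control lines, where 19.4% of all genes were. MC38 control was above B16 control without overlap at 14 members and below at 13, against 19.3% and 19.5% of all genes. Before adjustment, 11 higher and 7 lower members had a p under 0.05, against 5331 and 5251 of the 33363 genes, and DESeq2 called 17, against 32.3% of all genes. Zfp169 had the widest called fold with islands in every library, at 64.1 ± 15.2 RPM in MC38 control and 20.1 ± 5.17 RPM in B16 control (SD, n = 3 each; log2 difference 1.67 ± 0.30, edgeR adjusted p 0.0033). Zfp972, given above, Zfp825, Zfp362 and Zfp367 were also higher, by 0.80 ± 0.18 for Zfp825, 0.51 ± 0.10 for Zfp362 and 0.50 ± 0.11 for Zfp367 on the log2 scale (SE).

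Zfp839 was lower, at 57.2 ± 3.43 RPM in MC38 control and 79.6 ± 4.52 RPM in B16 control (SD, n = 3 each; log2 difference -0.48 ± 0.08, edgeR adjusted p 0.0022). Zfp410, Zfp770 and Zfp386 were lower too, with log2 differences of -0.54 ± 0.14, -0.88 ± 0.22 and -0.93 ± 0.21 (SE). The Zfp410 call ended without MC38 control replicate 1 or 2 or B16 control replicate 1 or 2, and the Zfp770 call without MC38 control replicate 3 or B16 control replicate 2. With 2 kb on each side of the 5′ end as the region, the calls of these 4 and of Zfp169, Zfp367 and Zfp825 ended, and Zfp362 turned to -0.29. That region called 10 of 76 members, against 11.9% of 30191 genes, and Zfp972 was the one called with both regions. The others were Zfp366, Zfp512b, Zfp738, Zfp831 and Zfp87 (higher in MC38 control) and Zfp37, Zfp456, Zfp618 and Zfp759 (lower). With the replicate block 14 of 82 members were called, against 25.7% of all genes, the added ones being Zfp292, Zfp69 and Zfp184 (higher in MC38 control) and Zfp217, an oncogene in human breast cancer, and Zfp131 (lower). Zfp69 was 0.97 ± 0.31 with an adjusted p of 0.052, and 0.96 ± 0.29 with an adjusted p of 0.0495 with the block. Zfp618, picked after its values were seen, had 8.82, 0 and 11 RPM in MC38 control, against 156, 190 and 181 RPM in B16 control, and an edgeR adjusted p of 0.0644; it was called with the 5′-end region (adjusted p 0.0043), with DESeq2 (0.035) and with edgeR without MC38 KO replicate 2 (0.033).

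The 12 genes listed as SETDB1 partners and retroelement repressors were Setdb1, Trim28, Atf7ip, Cbx1, Cbx3, Cbx5, Morc2a, Mphosph8, Pphln1, Chd4, Zfp809 and Zfp568. Of these, 4 passed the H3K9me3 filter and 0 were called by edgeR in either line. KO libraries lay below controls without overlap for 3 of the 4 in B16, against 9.44% of all genes. In MC38 this held for 0, against 1.73%, and for 2 without MC38 KO replicate 3, against 5.08%. Atf7ip, which stabilises SETDB1, had 16.5 ± 5.22 RPM in B16 KO and 102 ± 25.3 RPM in B16 control (SD, n = 3 each; adjusted p 0.64), and 19.1 ± 19.9 RPM in MC38 KO, against 47.5 ± 18.9 RPM in MC38 control (adjusted p 1). Morc2a, an ATPase of the HUSH silencing pathway, had no island in B16 KO, against 24.9 ± 3.02 RPM in B16 control (adjusted p 0.40), and 0.655 ± 1.14 RPM in MC38 KO, against 14.5 ± 11.8 RPM in MC38 control (adjusted p 0.81). Zfp809, a repressor of retroviruses in mouse stem cells, had 37.2 ± 3.33 RPM in B16 KO and 64.6 ± 10.1 RPM in B16 control (adjusted p 1), and no island in MC38 KO, against 22.6 ± 20.2 RPM in MC38 control (adjusted p 0.43). Setdb1 itself, the remaining one, had 4.03 ± 3.64 RPM in B16 KO and 3.26 ± 2.91 RPM in B16 control, and no island in MC38. For H3K9Ac all 12 were tested and 0 called by edgeR in either line. Higher without overlap were 3 in B16, against 4.73% of all genes, and 1 in MC38, against 1.92%. Atf7ip had 213 ± 34.8 RPM in B16 KO and 126 ± 20.8 RPM in B16 control (edgeR adjusted p 0.79). It had 126 ± 27.3 RPM in MC38 KO and 132 ± 29 RPM in MC38 control (adjusted p 1).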

How the data were processed

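Per the submitters' processing notes, the tools were cutadapt, Bowtie2 2.1.0, SAMtools 0.1.8, SICER 1.1 and deepTools 3.1.1 with mm10; the file names give SICER a window of 200 bp, a gap of 600 bp and an FDR of 0.05. The deposited files hold the read count of each island per library. The 4 input samples were not analysed here. Each island's count was apportioned by overlap to genes with 2 kb flanks, rounded and summed. edgeR 4.0.16 (R 4.3.3; TMM, quasi-likelihood) was fitted to the 12 libraries of a mark over genes with a mean of at least 10 reads, with Benjamini-Hochberg adjustment over all genes; DESeq2 1.42.0 and limma 3.58.1 (pseudocount 0.5) were alternatives. Apportioned counts miss reads outside islands, so low levels are truncated. Within each line, same-numbered KO and control libraries correlated for H3K9Ac (r 0.156 to 0.531), which was taken as pairing, but not throughout for H3K9me3. The block shared its replicate terms over both lines, and pairing across the lines was not tested. Named genes were those called, those whose groups did not overlap with the largest differences, the 4 densest per mark, and Zfp410, Zfp69, Zfp708 and Zfp738. The members and lists were chosen with earlier results of these data known. P-values measure the spread between deposited replicates only.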

Additional observations from a re-analysis of the deposited data

Results flagged for a closer look

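The effect of Setdb1 targeting on H3K9Ac over Zfp292 was called different between the lines in the edgeR fit with the replicate number as a block. The difference of effects, MC38 minus B16, was -0.749 on the log2 scale (SE 0.09, adjusted p 0.039). Without the block it was not called. It was the 1 call among 82 members in that fit, against 0.105% of all genes. The B16 change did not hold with the weakest islands removed, as given above. Over Zfp292 all 3 MC38 KO libraries were below the MC38 control of the same number, and all 3 B16 KO libraries were above the B16 control of the same number.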

How the results depend on the processing

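Over the alternatives, the named members' log2 changes kept direction and side of the threshold in 550 cases, lost the call in 42, gained it in 1 and turned in 6. The turned values were 0.04 for Zfp808 (H3K9me3, MC38 KO against control) with whole islands (0.037 unrounded), -0.0 for Zfp292 (H3K9Ac, B16 KO against control) with stricter islands, 0.19 and 0.18 for Zfp512b (H3K9Ac, B16 KO against control) with whole islands and with the 5′-end window, and -0.16 for Zfp933 (H3K9Ac, B16 KO against control) and -0.29 for Zfp362 (H3K9Ac, between lines) with that window. The cause was not tested. For H3K9me3, DESeq2 called 6 members in B16 (8.28% of all genes), 2 in MC38 (7.17%), 4 for the difference of effects (11.2%) and 8 between lines (27.4%). Between lines, 9 were called from the 6 control libraries alone, 1 with the replicate block (1.56% of all genes) and 1 with whole islands. For H3K9Ac, DESeq2 called 1 in MC38 (2.62% of all genes), 1 for the difference of effects (4.17%) and 17 between lines (32.3%). The replicate block called 1 in B16 (0.051% of all genes), 1 for the difference (0.105%) and 14 between lines (25.7%). Between lines, 5 were called from the 6 control libraries alone and 3 with whole islands. In MC38, H3K9me3 was lower without overlap at 0 members with DESeq2 size factors, 1 with scaling to total island reads and 1 without flanks. In B16, H3K9Ac was lower at 0 with total island reads, 1 with whole islands and 1 with the 5′-end window; in MC38 it was lower at 0 without flanks and 5 with that window, and higher at 2 with DESeq2 size factors, 0 with stricter islands, 2 without flanks and 0 with the window. The 5′-end counts and the counts without overlap that leave out a library were chosen after the data were seen. Counts given here without a share of all genes show only how a setting moves them and are no result about the members.

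Leaving out each library in turn, members called for H3K9me3 ranged from 0 to 1 in B16, 0 to 1 in MC38 (1 without KO replicate 3), 0 to 1 for the difference (1 without B16 control, B16 KO or MC38 KO replicate 3) and 2 to 6 between lines (6 without MC38 KO replicate 1); for H3K9Ac from 0 to 0 in B16, 0 to 0 in MC38, 0 to 0 for the difference and 7 to 11 between lines. Shares of all genes are not given for these called counts, which show only how far a single library moves them. Members lower without overlap for H3K9me3 ranged from 29 to 39 in B16, against 11.4% to 15.2% of all genes. In MC38 they ranged from 2 to 26, against 3.84% to 5.08%. Higher ones ranged from 0 to 1 in B16, against 7.82% to 14.6%, and 0 to 2 in MC38, against 1.01% to 4.59%. For H3K9Ac, lower ones ranged from 2 to 14 in B16, against 5.25% to 10.0%. In MC38 they ranged from 2 to 4 (4 without KO replicate 1 or 2), against 3.98% to 7.81%. Higher ones ranged from 5 to 9 in B16 (9 without KO replicate 3 or control replicate 1), against 7.07% to 9.72%. In MC38 they ranged from 1 to 18 (5 without control replicate 1), against 3.37% to 7.69%. Each of these shares was above that with all libraries. Leaving out a library can only keep or add genes whose groups do not overlap, so neither these shares nor the members' counts could fall.

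For H3K9me3 the replicate numbers did not pair the libraries throughout. For replicates 1, 2 and 3, r was 0.211, 0.171 and 0.013 in B16 and 0.308, 0.224 and -0.254 in MC38. The negative value involves MC38 KO replicate 3, the library that stood apart. The replicate block called 0 members in B16 and 0 in MC38. Scaling moved the median of all genes between the control lines to -0.29 with DESeq2 size factors and -0.65 with total island reads, and that of the members from 0.86 to 0.82 and 0.38. With 3 libraries a group, islands as the unit and no input counts, changes under the calling limit of an island were not detectable.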
